A study of Arabidopsis thaliana with 28 samples.

Results

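The comparison described here was between ago4 and Col-0 seedlings of Arabidopsis thaliana, in RNA precipitated with anti-NRPE1 antibody (NRPE1 is the subunit that defines RNA polymerase V, or Pol V). Its members were the 4 libraries of the 2 sets that the labels tag gp2 and gp3, with 1 ago4 and 1 Col-0 library in each set, out of 24 libraries of this assay and 28 samples in the series. The other 4 Col-0 libraries (untagged, gp4, gp5 and gp6) gave the spread of the wild type. The assay (IPARE, which joins immunoprecipitation with an analysis of RNA ends) sequences the 5′ ends of the recovered RNA after template switching. All plants of this assay were 18-day-old seedlings labelled with the ecotype Columbia. The ago4 seedlings carried a mutation in AGO4 and no other stated change, the Col-0 seedlings were wild type, and the 5 nrpe1 libraries, which lack the antibody's target, showed what the precipitation recovers without Pol V. Libraries of the spt5l, dms5-1 and drd3-3 mutants were also in the fits of windows, bins and gene bodies, where they lent their spread. Levels of spt5l are given beside those of ago4 in places. The labels do not name the ago4 allele or its crossing history. Nothing in them says whether the libraries of a genotype came from separate plantings, so p-values measure the spread between libraries, which may be technical. Averaged DNA methylation of 3.5-week-old Col-0 and nrpe1 leaves came with the same windows.

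Pol V transcribes non-coding RNA that stays close to chromatin. In RNA-directed DNA methylation (RdDM), AGO4 carries small interfering RNAs that pair with this RNA, and the methyltransferase DRM2 is brought to the site, where it methylates cytosines in all contexts (CG, CHG and CHH, with H any base but G). SPT5L is another factor that binds Pol V and AGO4. AGO4 is known to slice RNA, and the 5′ ends that IPARE reads can come from transcription starts or from cut RNA, which the counts do not separate. The authors counted reads in 794311 windows of 200 bp placed every 150 bp on the TAIR10 genome. Their class lists put 158314 windows in the RdDM class (transcribed by Pol V and targeted by RdDM), 204367 in the non-RdDM class (transcribed by Pol V only) and 431630 outside Pol V transcription. According to the labels the lists were made with the untagged, gp3 and gp4 libraries of Col-0 and nrpe1, so Col-0 gp2, gp5 and gp6 took no part in them.

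The windows held 6957714 counts in ago4 gp2 and 4331272 in ago4 gp3, against 1098651 to 5647081 in the 6 Col-0 libraries. Windows over ribosomal DNA took 43.9% of the counts of ago4 gp2 and 45.9% of those of ago4 gp3, against 29.1% to 41.4% in Col-0. No pair of libraries agreed within counting noise. Photosynthesis genes, as markers of green tissue, summed to 1208 CPM (counts relative to library size, with the total count as the size for sums over gene groups and the TMM-scaled total for single windows and genes) in ago4 gp2 and 608 in ago4 gp3, against 617 to 2207 in Col-0. Seed storage genes summed to at most 2.54 CPM in ago4 and 2.30 in Col-0, and floral organ genes to at most 9.93 in ago4 and 12.8 in Col-0. The gene body of AGO4 itself held 10 counts in ago4 gp2 and 0 in ago4 gp3, against 31 in Col-0 gp2 and 10 in Col-0 gp3. In CPM that was 2.12 and 0 in ago4, against 0 to 10.02 with a median of 3.28 in Col-0. The groups overlapped, and the difference of −1.74 on the log2 scale (SE 0.950) missed the threshold (Benjamini-Hochberg adjusted p = 0.780, edgeR quasi-likelihood test over all gene bodies), so the level at AGO4 did not check the genotype at this depth.

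One Col-0 library stood apart from the others before any comparison. Over 24891 RdDM windows, Col-0 gp3 correlated with the other 5 Col-0 libraries at a Pearson r of only 0.288 to 0.354 (log2 values across windows, a description). Its r was 0.685 with ago4 gp2, 0.713 with ago4 gp3, and 0.613 and 0.646 with the spt5l libraries. The ago4 libraries correlated with each other at 0.899, and with the 5 other Col-0 libraries at 0.232 to 0.309. Outside chromosome 2 from 4 to 12 Mb, over 22241 windows, Col-0 gp3 reached 0.746 with ago4 gp2 and 0.778 with ago4 gp3. The levels of Col-0 gp3 across windows were thus closer to those of the mutants than to those of its own genotype, and the part of this in the results was not tested. Class totals, counts of calls and named items are therefore also given without Col-0 gp3 or against each same-set Col-0 library by itself.

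Both ago4 libraries kept most of the Pol V dependent RNA. RdDM windows took 24.5% of the counts of ago4 gp2 and 24.0% of those of ago4 gp3 (24.3% ± 0.316, SD, n = 2), against 33.7% ± 7.15 in Col-0 (n = 6, range 24.1% to 43.2%). The ago4 values lay at the low end of the Col-0 range, and the difference of −0.45 on the log2 scale (SE 0.127) did not pass the exact permutation test (two-sided p = 0.107, adjusted over the 3 classes 0.161). Its smallest possible p with 2 libraries against 6 is 0.0357. Without Col-0 gp3 the difference was −0.46, and without the ribosomal DNA windows, which took a larger share in ago4, it was −0.23 (p = 0.214, exact permutation test). Within the sets it was −0.40 in gp2 and −0.42 in gp3, and against the Col-0 libraries that took no part in the class lists it was −0.23 (p = 0.3, exact permutation test). Leaving out chromosome 2 from 4 to 12 Mb, ago4 averaged 23.2% and Col-0 31.9%, a difference of −0.43 (p = 0.143, exact permutation test).

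Non-RdDM windows took 7.40% ± 1.04 of the counts in ago4 (n = 2), against 9.65% ± 2.07 in Col-0 (n = 6), which was −0.36 on the log2 scale (p = 0.179, exact permutation test). That difference was −0.38 without Col-0 gp3, −0.35 within gp2 and −0.39 within gp3. Windows outside Pol V transcription took 68.3% ± 1.35 in ago4 and 56.6% ± 9.14 in Col-0 (0.29, p = 0.107, exact permutation test), and this was 0.30 without Col-0 gp3 and 0.23 within each set. In the nrpe1 libraries the RdDM class held 4.04% ± 1.66 and the non-RdDM class 3.29% ± 1.05 (n = 5). The RdDM share of ago4 was 2.68 log2 units above that of nrpe1 and the non-RdDM share 1.22 above it. Each had p = 0.0476, the smallest that an exact permutation test of 2 against 5 can give. The class lists were made with the untagged, gp3 and gp4 libraries of nrpe1, so these tests are not independent of the lists. The gp5 and gp6 nrpe1 libraries took no part in them. They held 2.85% and 2.53% in the RdDM class, and 2.21% and 2.64% in the non-RdDM class. With the counts of the top 1 in 1000 windows per library cut down to that limit, the RdDM difference was 2.48 (adjusted p = 0.0714, exact permutation test). The non-RdDM difference was then 0.0027 (SE 0.0692, p = 1, exact permutation test), so that call was lost.

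A share falls when something else in the library grows, so the class signal was also set against the counts of windows outside Pol V transcription without ribosomal DNA, called background counts here. RdDM windows held 102 counts per 100 background counts in ago4 gp2 and 101 in ago4 gp3. Col-0 gp2 held 137 and Col-0 gp3 158, and the 6 Col-0 libraries ran from 85.5 to 264 with a median of 147. The nrpe1 libraries averaged 12.2. The 2 ago4 libraries lay close together and inside the wide Col-0 range, at 74.5% of the same-set Col-0 library in gp2 and 64.3% in gp3. The difference from all Col-0 was −0.63 on the log2 scale (SE 0.256, p = 0.214, exact permutation test, adjusted 0.321), and it was −0.63 without Col-0 gp3 too. Against the Col-0 libraries that took no part in the class lists it was −0.16 (p = 0.6, exact permutation test). For the non-RdDM class the values were 34.2 in ago4 gp2 and 28.3 in ago4 gp3, against 44.4 in Col-0 gp2 and 43.1 in Col-0 gp3, or 77.1% and 65.6% of the same-set Col-0 (−0.55, p = 0.321, exact permutation test). Against the Col-0 libraries outside the class lists this was −0.11 (p = 0.8, exact permutation test). In whole seedlings, fewer cells with Pol V RNA and less of it per cell cannot be told apart.

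**Figure D1:**
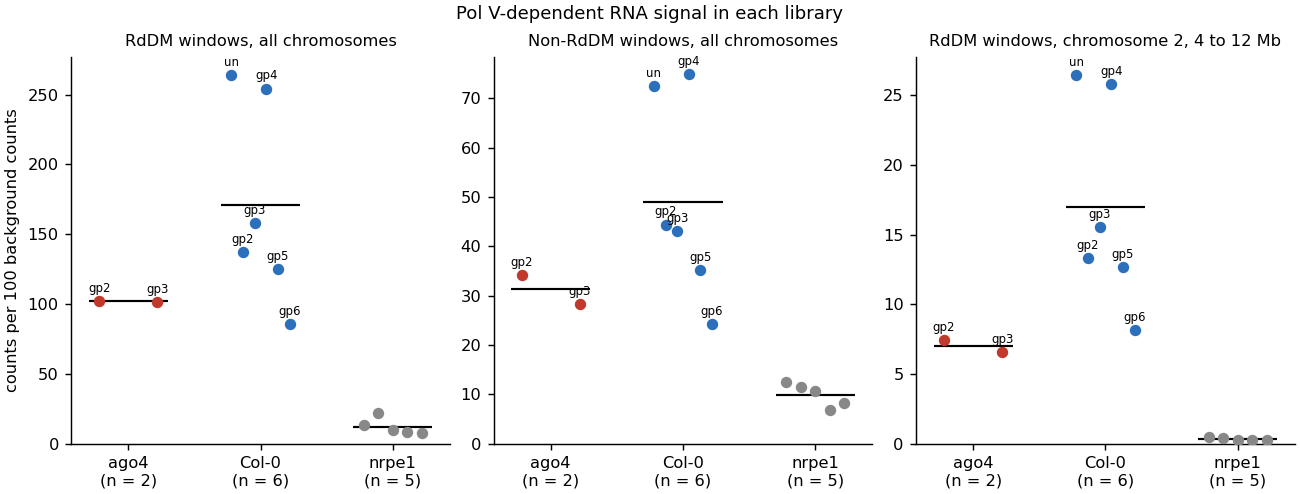
Counts per 100 background counts, 1 point per library, for ago4, Col-0 and nrpe1. They are given for RdDM and non-RdDM windows over the whole genome, and for RdDM windows within chromosome 2 from 4 to 12 Mb. The ago4 points lie inside the Col-0 range over the whole genome (102 and 101 against 85.5 to 264 in RdDM windows). Within the interval both ago4 points lie just under the Col-0 range in RdDM windows.

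By chromosome, the RdDM signal of ago4 stood at 74.4% (gp2) and 64.9% (gp3) of same-set Col-0 on chromosome 1, at 82.1% and 68.5% on chromosome 3, at 76.2% and 68.8% on chromosome 4 and at 76.1% and 67.5% on chromosome 5. Chromosome 2 was lower, at 63.3% in gp2 and 51.0% in gp3. Its stretch from 4 to 12 Mb, which was named with earlier results of these data in view and is therefore described with no test, held 7.47 counts per 100 background counts in ago4 gp2 and 6.60 in ago4 gp3. There Col-0 gp2 held 13.3 and Col-0 gp3 15.5, with 8.12 to 26.4 over the 6 Col-0 libraries, so both ago4 libraries lay below all of them. The nrpe1 libraries averaged 0.317. Within this stretch ago4 thus stood at 56.0% of Col-0 in gp2 and 42.5% in gp3, and non-RdDM windows stood at 66.0% and 53.7%. These non-RdDM windows held 2.02 counts per 100 background counts in ago4 gp2 and 1.63 in ago4 gp3. Col-0 ran from 1.80 to 5.66 there, so ago4 gp3 lay below that range and ago4 gp2 did not. Outside the stretch, the RdDM signal of chromosome 2 stood at 71.2% and 60.4%. Over the genome without the stretch, ago4 held 94.7 and 94.8 in RdDM windows, against 124 in Col-0 gp2 and 142 in Col-0 gp3 (76.5% and 66.7%, log2 difference from all Col-0 −0.59, p = 0.25, exact permutation test). The AGO4 gene lies within the stretch. Windows outside Pol V transcription showed no such drop, since the stretch took 3.23% and 2.54% of the background counts in ago4, against 2.45% to 3.56% in Col-0.

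Bins of 1 Mb gave the drop at a finer scale. The limits of the stretch were set with earlier results of these data in view, so values at its edges are a description. In the gp3 set all 8 bins of the stretch held under 50% of the RdDM signal of Col-0 (36.0% to 47.2%, median 42.3%), as did 4 of the 113 other bins (median 65.9%). In the gp2 set the 8 bins held 44.9% to 70.3% (median 53.5%), and 3 of them held under 50%. The other 113 bins had a median of 70.9% in gp2, and 8 of them held under 50%. At these limits the share of tested windows called lower by the test of single windows changed too. It was 3.41% in the bin from 3 to 4 Mb and 28.7% in the next, and 26.01% in the bin from 11 to 12 Mb and 3.04% in the next. Other bins with low ago4 signal lay on chromosome 1 from 7 to 9 Mb (49.5% of Col-0 in gp2 and 46.9% in gp3 from 7 to 8 Mb, 48.8% and 35.5% from 8 to 9 Mb), at the end of chromosome 5 from 26 Mb (34.0% in gp2, 39.4% in gp3) and at the end of chromosome 4 from 18 Mb (48.0% and 55.4%).

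**Figure D2:**
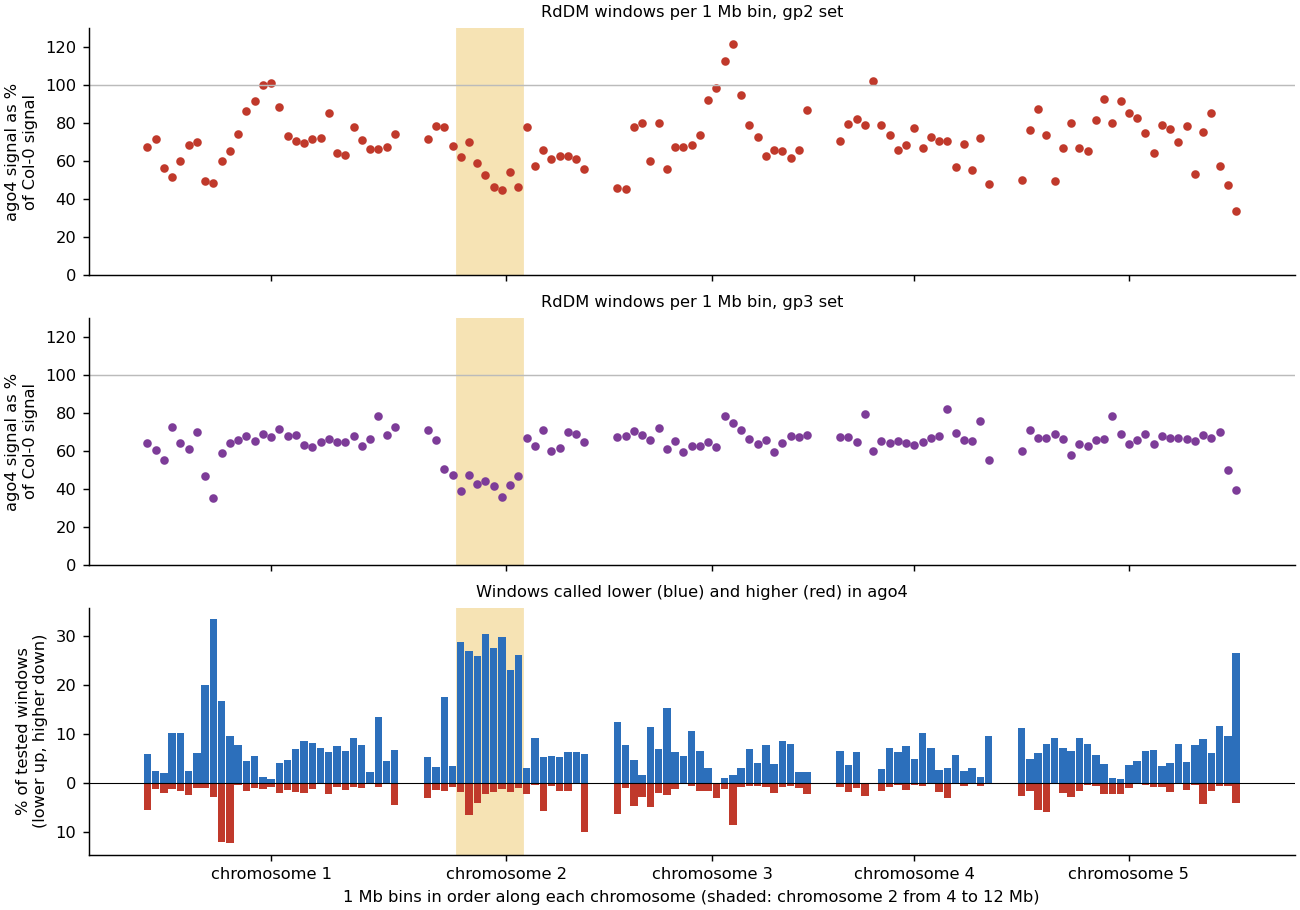
RdDM signal of ago4 as a percent of same-set Col-0 (each per background count) in 1 Mb bins along the 5 chromosomes, for the gp2 and gp3 sets, with the stretch from 4 to 12 Mb of chromosome 2 shaded. In gp3 all 8 shaded bins lie between 36.0% and 47.2%, and the other bins have a median of 65.9%.

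Tested across the 121 bins with each library scaled by its background counts, no bin passed the threshold (0 lower and 0 higher, 0% of bins each; edgeR's quasi-likelihood test), and 23 had an unadjusted p under 0.05. That scaling carries the wide spread of the Col-0 background counts, and the bins' median log2 difference was −0.89. Scaled by the weighted trimmed mean of the bins themselves (TMM), which removes a drop common to all bins, 3 bins were lower (2.48%, edgeR's quasi-likelihood test). They were the end of chromosome 5 from 26 Mb (−0.96, SE 0.146, adjusted p = 0.000377 by edgeR), chromosome 2 from 9 to 10 Mb (−0.66) and the end of chromosome 4 from 18 Mb (−0.45). With the set as a block as well, 2 bins were lower (1.65%). With TMM, no block and windows of high nrpe1 counts left out, a combination chosen after the data were seen, 11 bins were lower (9.09%). They were the bins of chromosome 1 from 7 to 9 Mb, of chromosome 2 from 7 to 12 Mb, of chromosome 5 from 0, 25 and 26 Mb, and the end of chromosome 4. Against Col-0 gp3 by itself 7 bins were lower and 1 higher in that fit, and 6 were lower against Col-0 gp2.

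Single windows gave the larger number of calls. Of 36843 windows with enough counts to test, 3144 were lower in ago4 (8.53%) and 685 higher (1.86%) at an adjusted p under 0.05 (edgeR, quasi-likelihood, TMM scaling, adjusted over all tested windows). Lower windows made up 82.1% of the calls. With libraries scaled by their background counts instead, which moved the median log2 difference to −0.79 from −0.02, 4438 windows were lower (12%) and 311 higher (0.844%), so that 93.5% of the calls were lower. With the set as a block 2600 were lower (7.06%) and 465 higher (1.26%). Within the stretch of chromosome 2, 933 of 3409 tested windows were lower (27.4%) and 92 higher (2.7%). Outside it 2211 of 33434 were lower (6.61%) and 593 higher (1.77%). With the stretch left out of the fit, 2093 windows were lower and 498 higher. Neighbouring windows overlap by design, and the lower windows joined into 385 regions inside the stretch, the longest of 23 windows, and 1231 outside it.

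Nearly all lower windows were in the Pol V classes of the lists. The lists were made with Col-0 untagged, gp3 and gp4, which are also in this contrast. Windows high in Col-0 and low in nrpe1 tend to fall in these classes by construction, so the split is a description. In the stretch 794 of 2665 tested windows of the RdDM class were lower (29.8%), as were 135 of 486 in the non-RdDM class (27.8%) and 4 of 258 outside Pol V transcription. Elsewhere 1807 of 22779 in the RdDM class were lower (7.93%), 403 of 5543 in the non-RdDM class (7.27%) and 1 of 5112 others. Higher windows were spread differently. Beyond the stretch 227 of 22779 windows in the RdDM class were higher, and 141 of 5543 in the non-RdDM class (2.54%). Outside Pol V transcription 225 of 5112 were higher (4.40%), against 1.77% of all tested windows beyond the stretch. Within the stretch these were 61 of 2665, 17 of 486 and 14 of 258. Among RdDM windows outside the stretch, chromosome 1 had 621 lower (10.5%), the rest of chromosome 2 had 203 (8.23%), chromosome 3 had 326 (6.16%), chromosome 4 had 229 (6.06%) and chromosome 5 had 428 (8.04%).

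The calls rested to different degrees on Col-0 gp3. In the lower windows of the stretch the median level was 0.29 CPM in ago4 gp2 and 0 in ago4 gp3, against 5.00 in Col-0 gp2 and 4.18 in Col-0 gp3, with 4.50 to 5.70 in the other 4 Col-0 libraries. In those 933 windows both ago4 libraries lay below all 6 Col-0 libraries in 851 (91.2%), as they did in 34.4% of all tested windows there. These windows were chosen for being lower, so the share is a description. In the 2211 lower windows outside the stretch the medians were 0.43 and 0.26 CPM in ago4, against 6.66 in Col-0 gp2 and 1.22 in Col-0 gp3. The other 4 Col-0 libraries had medians of 6.09 to 7.67 there. Both ago4 libraries lay below all 6 Col-0 libraries in 1365 of these windows (61.7%), and in 8.83% of all tested windows outside the stretch. Col-0 gp3 was below all 5 other Col-0 libraries in 1677 of these windows (75.8%), as it was in 23.9% of all tested windows outside the stretch, and it was under 25% of their mean in 1287 (58.2%). The spt5l libraries, with medians of 2.76 and 2.52 CPM there, were also low, and within the stretch they were not (4.56 and 4.59 CPM).

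**Figure D3:**
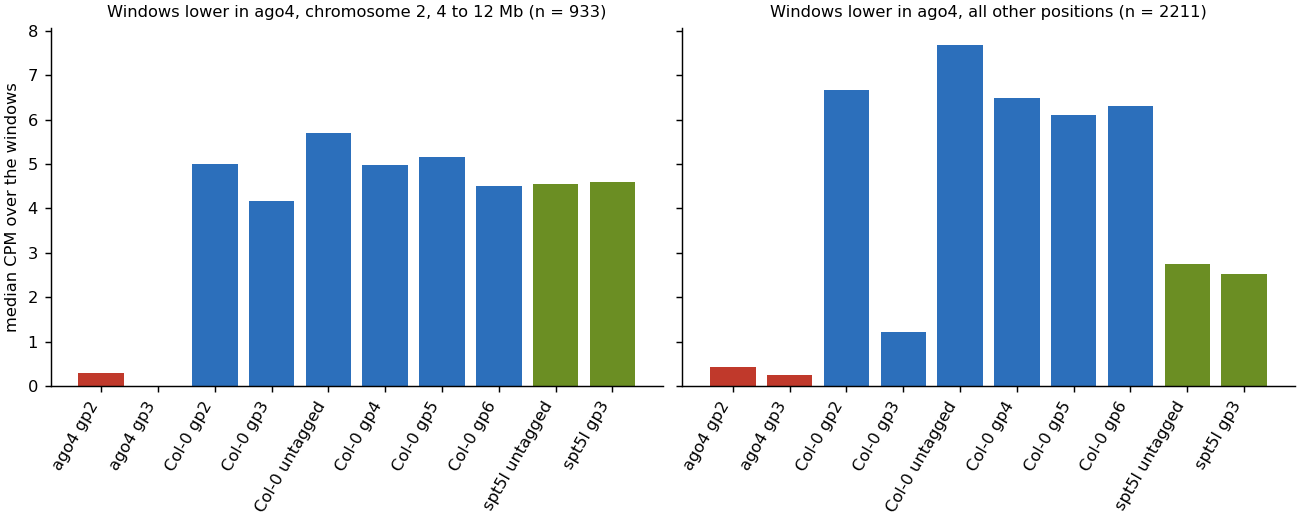
Median level, in CPM, of ago4, spt5l and Col-0 libraries over the windows called lower in ago4, within chromosome 2 from 4 to 12 Mb (933 windows) and outside it (2211 windows). Within the stretch every Col-0 library has a median of at least 4.18 CPM, and outside it Col-0 gp3 has 1.22 CPM, below the other Col-0 libraries.

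Against Col-0 gp3 by itself, 1128 windows were lower (3.06%) and 327 higher (0.888%), and 610 of the lower ones lay in the stretch. Of the 3144 lower windows, 1051 remained in that fit. Against Col-0 gp2 by itself 1825 were lower (4.95%, 645 in the stretch) and 89 higher (0.242%). With Col-0 gp3 left out, 4596 of 33182 windows were lower (13.9%, 1045 in the stretch) and 2134 higher (6.43%). Leaving out an ago4 library cut the lower windows to 860 (without gp2) or 1230 (without gp3), and the higher ones to 242 without gp2, while 1394 were higher without gp3. Without Col-0 gp4 417 were higher. In a fit of the 4 libraries of gp2 and gp3 by themselves, 0 windows passed by edgeR and 3906 had an unadjusted p under 0.05.

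Among RdDM windows, those of low CG methylation held the lowest ago4 signal relative to same-set Col-0, and how much lower differed between the sets. Windows of the RdDM class were binned by the CG methylation of Col-0 leaves. The 26364 RdDM windows with no CG value fell outside these bins, and ago4 held 59.3% of Col-0 there in gp2 and 60.4% in gp3. Below 10% CG methylation, ago4 held 40.7% of the RdDM signal of Col-0 in gp2 and 57.5% in gp3. From 10% to 50% it held 55.4% and 62.4%, from 50% to 80% it held 79.7% and 64.8%, and above 80% it held 88.1% and 66.1%. Against all Col-0 libraries the log2 differences were −1.40, −1.02, −0.54 and −0.41 in this order, and none passed (adjusted p = 0.179, 0.179, 0.321 and 0.321, exact permutation test). Without the stretch the gp2 values were 42.2%, 57.3%, 82.0% and 90.2%, and the gp3 values 59.8%, 64.9%, 67.1% and 68.6%. The rise with CG methylation was thus wide in the gp2 set and narrow in the gp3 set, whose Col-0 library is the one that stood apart. Windows of the non-RdDM class did not share this order. Without the stretch they held 85.3%, 98.1%, 97.3% and 96.9% of Col-0 over the same bins in gp2. In gp3 they held 70.6%, 58.8%, 61.8% and 62.6%, where the lowest CG bin was the highest. The 57873 non-RdDM windows with no CG value, again without the stretch, held 64.5% in gp2 and 68.3% in gp3. The whole class without the stretch held 77.9% and 66.5%.

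The same order showed in the share of tested RdDM windows called lower outside the stretch, with 24.8%, 13.2%, 5.02% and 2.64% in these 4 bins. Against Col-0 gp3 by itself the shares were 2.80%, 3.05%, 1.99% and 1.34%. Within the stretch they were 54.3%, 40.9%, 26.5% and 24.2%, and against Col-0 gp3 by itself 17.1%, 20%, 20.6% and 21.2%, with the order turned round. Lower RdDM windows outside the stretch had a median CG methylation of 5.51% in nrpe1 leaves and 50.7% in Col-0 leaves. Of these 1807 windows, 870 had a CG value in nrpe1 and 1111 in Col-0, so the medians are over different sets of windows. All tested RdDM windows there had 78.1% in nrpe1 and 77.8% in Col-0 (15559 and 17928 of 22779 with a value). In the stretch the lower RdDM windows had 75.5% in nrpe1 and 73.4% in Col-0 (538 and 608 of 794 with a value). The methylation values are averages over leaf samples with no coverage behind them, so they were compared with no test, and no ago4 methylation was used here.

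**Figure D4:**
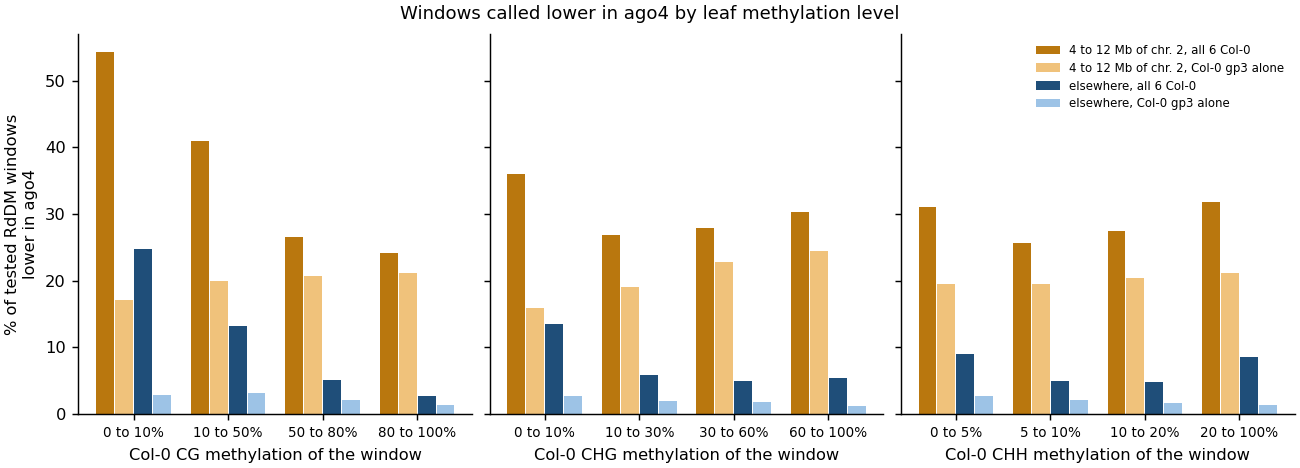
Percent of tested RdDM windows called lower in ago4, by bins of CG, CHG and CHH methylation in Col-0 leaves. Bars are given within chromosome 2 from 4 to 12 Mb and outside it, against all Col-0 libraries and against Col-0 gp3 by itself. Outside the stretch the share is 24.8% in the lowest CG bin and 2.64% in the highest against all Col-0, and 2.80% and 1.34% against Col-0 gp3.

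Bins of CHG methylation and of CHH methylation, the context most tied to RdDM, lay closer together in the gp2 set. Windows with no value in a context fell outside its bins. By CHG methylation of 0 to 10%, 10 to 30%, 30 to 60% and 60 to 100%, ago4 held 61.7%, 78.4%, 81.2% and 83.4% of Col-0 in gp2 and 61.4%, 65.4%, 66.6% and 63.4% in gp3. By CHH methylation of 0 to 5%, 5 to 10%, 10 to 20% and 20 to 100%, it held 73.5%, 83.3%, 80.9% and 70.2% in gp2 and 62.0%, 63.9%, 69.1% and 62.4% in gp3. The share of tested RdDM windows called lower ran 9.03%, 4.85%, 4.72% and 8.57% over the CHH bins outside the stretch, and 31.1%, 25.6%, 27.4% and 31.9% within it. Windows whose CHH methylation was at least 10 points lower in nrpe1 than in Col-0 held 72.0% of the signal in gp2 and 64.5% in gp3, against 88.6% and 61.8% where it was higher in nrpe1. Over windows with no gene ago4 held 73.2% and 64.9%, over protein-coding genes 75.2% and 62.5%, and over pseudogenes 85.7% and 61.6%.

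The drop was uneven from window to window. Windows were kept here by their count in the Col-0 library of the ratio, which pulls the ratios down, so these values are a description. Among RdDM windows with at least 30 counts in Col-0 gp3, 27.4% of the 1208 in the stretch held under 10% of the Col-0 signal in ago4 gp3, and 2.99% of the 9528 elsewhere did. The medians were 34.8% in the stretch and 60.3% elsewhere. In the gp2 set 32.8% of 960 windows in the stretch and 12% of 8423 elsewhere held under 10%, with medians of 31.1% and 55.4%. As a background, Col-0 gp3 was set against Col-0 gp2 in the same way. It had 6.77% of windows under 10% in the stretch and 10.6% elsewhere, with medians of 86.4% and 81.1%. No other Col-0 library had more than 1.45% of windows under 10%. Their medians ran from 52.6% (gp6) to 187% (untagged) in the stretch, and from 53.9% to 189% elsewhere.

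Named regions show what this looked like. Regions were joined from called windows and named by their window with the smallest p, whose values follow. Levels are in CPM, adjusted p-values come from edgeR's quasi-likelihood test over all windows, and where ago4 had no read the fold is a lower bound that takes 3 counts over both ago4 libraries. Gene names come from the RefSeq table of TAIR10.1. Regions were named only where both ago4 libraries lay beyond every Col-0 library, gp3 included. That choice favoured calls that hold against Col-0 gp3 by itself or without it, so neither fit is a separate check. All 24 named regions kept their calls without Col-0 gp3. In the fit of the gp2 and gp3 libraries by themselves, where no window passed, all 24 lost them.

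Within the stretch the 4 named lower regions were of the RdDM class and had no ago4 read in the window named. The region chr2:6391051-6392150 lies over AT2G14870, and its window had 0 and 0 CPM in ago4, against 9.38 to 20.02 in Col-0 (median 15.6). It was at least 58.0-fold lower in ago4 (fitted log2 difference −8.70, SE 1.14, adjusted p = 9.91e-05 by edgeR), and its cytosines were methylated to 82.0% in CG and 10.7% in CHH in Col-0. The region chr2:6880951-6881750 lies over the pseudogene AT2G15800 beside SQN, which encodes a cyclophilin that aids microRNA activity. It had 0 and 0 CPM in ago4, against 8.10 to 18.2 in Col-0 (median 14.5), and was at least 54.5-fold lower, with CHH methylation of 5.23% in nrpe1 and 36.9% in Col-0. The region chr2:9194701-9195650, over AT2G21465 next to the SUMO-activating enzyme gene SAE2, was at least 28.4-fold lower (0 and 0 CPM in ago4, against 5.63 to 9.90 in Col-0). The region chr2:5791501-5792300 was at least 19.1-fold lower (0 and 0 CPM in ago4, against 4.07 to 7.501 in Col-0). In each of these windows Col-0 gp3 lay within or above the range of other Col-0 libraries, between 6.09 and 20.02 CPM.

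Outside the stretch 8 lower regions were named, 5 of the RdDM and 3 of the non-RdDM class. A pair of them lay close together on chromosome 1. The region chr1:7969201-7970150, right of AT1G22550, had 0 and 0 CPM in ago4, against 7.13 to 14.8 in Col-0 (median 9.88), and was at least 37.2-fold lower (−8.15, SE 1.05, adjusted p = 0.000113 by edgeR). The region chr1:7973101-7974200, over the pseudogene AT1G22560, had 0 and 0 CPM in ago4, against 4.22 to 6.66 in Col-0, and was at least 18.99-fold lower. Both lie in the bin from 7 to 8 Mb that was low as a whole. The region chr1:8832601-8833250, over LpxC5, a gene of lipid A synthesis, kept 1 read in ago4 gp2 (0.145 and 0 CPM, against 6.56 to 12.8 in Col-0) and was 102-fold lower, with a 95% counting interval of 18.1 to 4043.

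On other chromosomes, chr3:8684251-8684900, between AT3G24040 and the transcription factor gene GATA1, had 0 and 0 CPM in ago4, against 3.83 to 14.4 in Col-0 (at least 39.8-fold lower), and Col-0 gp3 was the lowest Col-0 library there. The region chr2:2852401-2852750 had 0 and 0 CPM in ago4, against 7.67 to 13.9 in Col-0 (at least 33.9-fold lower), and there Col-0 gp3 was the highest. The regions chr5:26415001-26415800 and chr5:26607751-26608250, both in the low bin at the end of chromosome 5, were at least 30.7-fold and 22.8-fold lower. The region chr5:9550951-9551300, beside the vacuolar sodium/proton exchanger gene NHX1, was at least 21.4-fold lower (0 and 0 CPM in ago4, against 4.004 to 8.10 in Col-0). The window of chr1:7969201-7970150 held 14.005% CHH methylation in nrpe1 and 13.2% in Col-0, so not all of these regions were ones where nrpe1 leaves had lost CHH methylation.

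**Figure D5:**
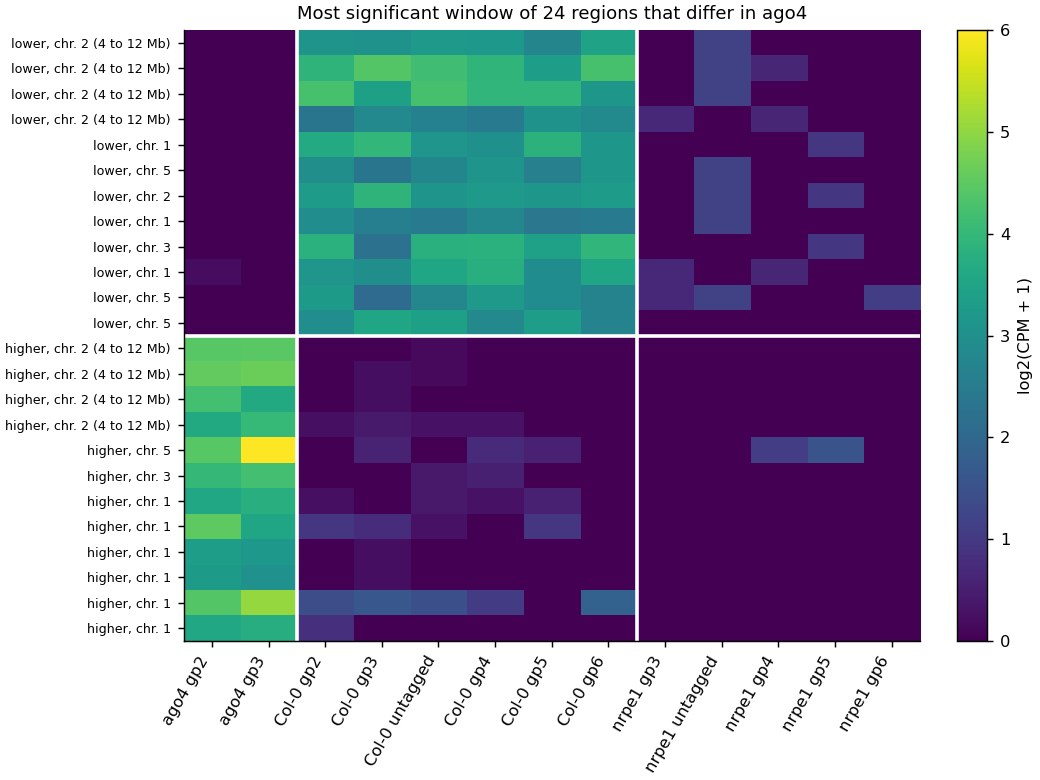
Levels, as log2(CPM + 1), of the 24 named windows in each ago4, Col-0 and nrpe1 library, with lower regions above and higher regions below. Lower windows are at or near 0 in both ago4 libraries and present in all 6 Col-0 libraries. Higher windows are present in both ago4 libraries and at or near 0 in nearly all Col-0 libraries.

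Named higher regions were mirror images of these, with RNA in both ago4 libraries and next to none in Col-0. In the stretch, chr2:7525501-7526000 had 20.8 and 20.9 CPM in ago4, against 0.110 in Col-0 untagged and 0 in the other 5 Col-0 libraries (fitted log2 difference 8.19, SE 0.583, adjusted p = 4.62e-07 by edgeR). The ratio of levels was 587, with a counting interval of 104 to 23296 since Col-0 had 1 read. The region chr2:6711751-6712250 lies between the fucosyltransferase gene FUT4 and NRPE3B, a gene for a Pol V subunit. It had 22.6 and 24.2 CPM in ago4, against 0 to 0.174 in Col-0 (ratio 326, interval 89.3 to 2708). The region chr2:9457351-9457700 had 17.4 and 11.49 CPM in ago4, against 0 to 0.174 in Col-0 (ratio 429, interval 75.9 to 17036). These 3 were non-RdDM windows with at most 0.446% methylation in any context in Col-0 leaves. The fourth, chr2:6439501-6440000, was of the RdDM class, methylated to 86.5% in CG, with 11.4 and 15.3 CPM in ago4, against 0 to 0.348 in Col-0 (ratio 60.2, interval 26.97 to 167).

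Outside the stretch the highest ago4 level of a named window was at chr5:26855551-26856200, over MYBR1 (a MYB transcription factor gene) and the cytochrome P450 gene CYP81G1, with an antisense RNA annotated at the same place. It had 20.7 and 63.0 CPM in ago4, against 0 to 0.648 in Col-0 (log2 difference 7.12, SE 0.766, adjusted p = 8e-06 by edgeR), a ratio of 145 (interval 69.6 to 362). The labels do not say that counting used strand, so sense and antisense reads cannot be told apart there. The region chr3:7286551-7287050, between UCNL and PLT1, a root stem cell factor, had 15.05 and 17.4 CPM in ago4, against 0 to 0.432 in Col-0 (ratio 89.4, interval 37.6 to 279). The other 6 lay on chromosome 1 between 8 and 11 Mb. Among them chr1:9574801-9575150 over AT1G27565 was the only one of the RdDM class, with 20.1 and 32.4 CPM in ago4, against 0 to 2.70 in Col-0 (ratio 15.4). The region chr1:10005301-10005950, between AGL58 and AGL59, was outside Pol V transcription by the class list, and had 11.1 and 12.3 CPM in ago4, against 0.740 in Col-0 gp2 and 0 in the other 5 Col-0 libraries (ratio 81.2, interval 30.9 to 303). Of the 366 windows tested in the bin from 10 to 11 Mb 12.3% were higher, and 11.9% in the bin before it, against 1.86% over the genome. In these bins of chromosome 1 ago4 thus had lower and higher windows side by side, with 16.7% of windows lower from 9 to 10 Mb.

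Counts summed over gene bodies gave fewer calls. Of 17032 gene bodies tested, 193 were lower in ago4 (1.13%) and 257 higher (1.51%) by edgeR's quasi-likelihood test. In the stretch 106 of 1198 were lower (8.85%) and 18 higher (1.5%), and elsewhere 87 of 15834 were lower (0.549%) and 239 higher (1.51%). With the set as a block 187 were lower (1.1%) and 126 higher (0.74%). Scaled by background counts, 216 were lower (1.27%) and 129 higher (0.757%), so that lower genes were 62.6% of the calls, and 42.9% with TMM. Without Col-0 gp3 237 were lower (1.46%) and 187 higher (1.15%), and against Col-0 gp3 by itself 81 were lower (0.476%) and 11 higher (0.0646%). Against Col-0 gp2 by itself 71 were lower (0.417%) and 5 higher (0.0294%). The higher calls moved most, to 126, 140 and 123 without Col-0 gp4, gp5 or gp6, to 58 without ago4 gp2 and to 469 without ago4 gp3, while the lower ones went to 75 and 95 without an ago4 library.

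Pseudogenes, which hold many transposon remnants, made up the largest group of lower genes in the stretch, with 52 of 321 tested there and 17 of 2347 elsewhere. Protein-coding genes had 34 of 743 lower and 14 higher in the stretch, and 46 of 11921 lower and 171 higher elsewhere. Their 185 higher calls in all numbered 56 with the set as a block, 45 by DESeq2, 7 against Col-0 gp3 by itself and 4 against Col-0 gp2 by itself, and were 137 without Col-0 gp3. Their 80 lower calls became 86 with the block, 143 by DESeq2, 27 against Col-0 gp3, 25 against Col-0 gp2 and 115 without Col-0 gp3. The 69 lower pseudogenes numbered 62 with the block, 39 against Col-0 gp3, 29 against Col-0 gp2 and 67 without Col-0 gp3.

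Of the 25 genes named with a call, the pathway gene SUVH2 included, 15 lost it against Col-0 gp3 by itself and 17 against Col-0 gp2 by itself (edgeR's quasi-likelihood test). The 4 lower genes named in the stretch kept theirs in both fits. Of the higher genes, LCR31 kept its call against Col-0 gp3 and AT1G27560 against Col-0 gp2, and the others kept it in neither. Without ago4 gp2 10 calls were lost and without ago4 gp3 4. AT2G06670 lost its call without Col-0 gp3, and with the set as a block AT4G02895, AT2G07744 and AT2G06670 did. AT2G14870 held no read in either ago4 library, against 26.1 to 50.7 CPM in Col-0 (median 37.5). It was at least 97.9-fold lower (−9.31, SE 1.08, adjusted p = 2.36e-05, edgeR's quasi-likelihood test), and all 11 tested windows within 1000 bp of it were called lower. AT2G19960 was at least 90.2-fold lower (0 and 0 CPM in ago4, against 26.6 to 54.1 in Col-0). AT2G11200 was at least 32.7-fold and AT2G23330 at least 29.1-fold lower.

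Outside the stretch the pseudogene AT1G25430, in the low bin of chromosome 1 from 8 to 9 Mb by its windows, had 3.82 and 0 CPM in ago4, against 209 to 371 in Col-0 (median 238). Its level in ago4 was 0.00940 of that in Col-0 (counting interval 0.00556 to 0.0149), a log2 difference of −6.84 (SE 0.891, adjusted p = 3.55e-05, edgeR's quasi-likelihood test), and 14 of 14 tested windows within 1000 bp were lower. The pseudogene AT2G06540 had 0 and 0.407 CPM in ago4, against 16.3 to 33.8 in Col-0. AT1G33785 was at least 24.4-fold lower, AT2G07682 at least 18.7-fold, AT2G06590 at least 13.2-fold, AT4G02895 at least 12.4-fold, AT2G07744 at least 10.1-fold and AT2G06670 at least 8.71-fold, each with no ago4 read. Of these 8 genes, 5 are on chromosome 2 outside the stretch. Reads of AT2G07682 and AT2G07744 are uncertain, since chromosome 2 carries a near-identical copy of mitochondrial DNA in that part.

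Among higher genes outside the stretch, AT1G27560 had 30.4 and 42.0 CPM in ago4, against 0 to 0.563 in Col-0 (log2 difference 7.58, SE 0.842, adjusted p = 2.36e-05, edgeR's quasi-likelihood test), and its neighbour AT1G27550 had 29.7 and 27.3 CPM in ago4, against 0 to 0.845 in Col-0. LCR31, which encodes a small cysteine-rich protein, had 43.8 and 37.5 CPM in ago4, against 0 to 0.970 in Col-0. AT1G09135 had 26.1 and 21.2 CPM in ago4, against 0 to 0.483 in Col-0. AT3G07965 had 7.86 and 11.4 CPM and AT1G21864 had 8.07 and 8.15 CPM in ago4 and no read in any Col-0 library, so they were at least 46.4-fold and 41.4-fold higher with 3 counts taken over all Col-0. AT2G04420 had 11.9 and 23.6 CPM in ago4, against 0 to 0.380 in Col-0, and AT3G03165 had 8.07 and 8.15 CPM in ago4, against 0 to 0.817 in Col-0. In the stretch AT2G23880 had 37.4 and 59.1 CPM in ago4, against 0 to 1.69 in Col-0, and AT2G00630 had 51.8 and 45.2 CPM in ago4, against 0 to 2.82 in Col-0. AT2G23300 and AT2G19890 were the other higher genes named there, at 11.7 and 27.7 CPM and at 11.0 and 16.7 CPM in ago4, with at most 1.41 and 1.94 CPM in Col-0.

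Transfer RNA genes held 45 of the 257 higher gene bodies and none of the lower ones, of 250 tested. Summed over these 45, ago4 had 3743 and 5624 CPM, against 357 to 2065 in Col-0 (1439 in gp2, 880 in gp3). The nrpe1 libraries had 544 to 1834 CPM. These 45 were chosen by that call, and over all transfer RNA genes the groups lay closer, with 18818 and 24119 CPM in ago4, against 5652 to 17038 in Col-0. The nrpe1 libraries held 7967 to 22018 CPM. Per 100 background counts all transfer RNA genes held 7.93 and 10.2 in ago4, against 2.41 to 9.22 in Col-0, so ago4 gp2 lay inside the Col-0 range. The calls depended on the fit, with 48 higher with the set as a block, 23 without Col-0 gp3, 10 by DESeq2, 5 when scaled by background counts, 5 when scaled by library totals, and 0 against Col-0 gp2 or gp3 by itself. Many transfer RNA genes are near-identical copies, so reads of single genes are uncertain.

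Among genes of the RdDM pathway, 25 were listed and 15 could be tested. Of these 1 was lower (1.13% of all gene bodies were) and none higher, with a median log2 difference of −0.58, against 0.04 over all gene bodies (−1.08 and −0.48 when scaled by background counts). Summed over the list, ago4 gp2 had 74.0 CPM and ago4 gp3 45.7, against 72.8 to 152.7 in Col-0 (median 109.8). By these sums ago4 gp3 lay below every Col-0 library and ago4 gp2 did not. The sums are relative to total counts, unlike the TMM-scaled values of single genes. Ribosomal DNA windows took 45.9% of those totals in ago4 gp3, against 29.1% to 41.4% in Col-0, which lowers the sum in ago4 gp3. The lower one was SUVH2, which encodes a protein that binds methylated DNA and helps bring Pol V to chromatin. It had 5.95 and 3.26 CPM in ago4, against 19.1 to 38.7 in Col-0 (median 27.6), so the groups did not overlap. Its level in ago4 was 0.173 of that in Col-0 (counting interval 0.120 to 0.243), a log2 difference of −2.56 (SE 0.664, adjusted p = 0.0303, edgeR's quasi-likelihood test). The call was lost without Col-0 untagged (adjusted p = 0.0521 by edgeR), gp4 (0.0526) or gp5 (0.0578), without either ago4 library and against a single Col-0 library. The other pathway members with a lower window within 1000 bp were NRPD2A, a subunit shared by Pol IV and Pol V, CLSY1, a Pol IV partner, and MORC6, an ATPase of silencing. That made 4 of 25 listed members, against 2 of 12 housekeeping genes, 1 of 13 of other small RNA silencing and 1 of 21 of photosynthesis. The remaining lists had 0. The share over all gene bodies is not given here, so this count is a description. NRPD1, the largest subunit of Pol IV, had 4.89 and 2.85 CPM in ago4, against 0 to 11.4 in Col-0, and SPT5L had 17.4 and 19.1 CPM in ago4, against 10.6 to 23.4 in Col-0, with overlapping groups in both.

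No gene with a known RdDM target sequence passed the test, of 7 listed and 6 tested (0 by DESeq2 as well, and 1 at an unadjusted p under 0.05). FWA, silenced by methylated repeats at its start, had 17.0 and 15.5 CPM in ago4, against 13.2 to 44.7 in Col-0 (median 28.6). ROS1, the demethylase whose promoter RdDM keeps active, had 30.2 and 20.8 CPM in ago4, against 20.3 to 70.8 in Col-0 (median 51.7), and SDC had 10.2 and 8.15 CPM in ago4, against 8.73 to 14.2 in Col-0. MYC1 was the one at an unadjusted p under 0.05, with 87.8 and 81.1 CPM in ago4, against 36.9 to 49.3 in Col-0 (log2 difference 1.04, adjusted p = 0.481, edgeR's quasi-likelihood test). The retrotransposon EVD had 21.9 and 13.4 CPM in ago4, against 8.17 to 17.1 in Col-0, and the Mutator element ATMU1 had 21.7 and 26.5 CPM in ago4, against 14.2 to 36.5 in Col-0. They were the 2 of 17 listed transposons matched by locus, and neither passed.

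In the remaining lists, by edgeR and by DESeq2 alike, no gene passed, among 8 tested genes of other small RNA silencing (median log2 difference 0.07), 10 of methylation maintenance and removal (−0.09), 21 of photosynthesis (−0.41), 11 housekeeping genes (0.21), 5 stress genes (1.19) and 2 floral organ genes. At an unadjusted p under 0.05 there was 1 housekeeping gene and there were 2 stress genes. Summed over the 8 listed stress genes, ago4 gp2 had 135 CPM and ago4 gp3 95.6, against 68.2 to 256 in Col-0 (median 134). Some stress genes, picked after their values were seen, were high in ago4 gp2 by itself. PR1, a marker of salicylic acid response, had 34.6 CPM in ago4 gp2 and 0 in ago4 gp3, against 0 to 2.85 in Col-0, and was too low elsewhere to test. PR2 had 29.1 and 0.815 CPM in ago4, against 0.282 to 6.83 in Col-0 (adjusted p = 0.382, edgeR's quasi-likelihood test), and PR5 had 14.4 and 0 CPM in ago4, against 0 to 2.85 in Col-0.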

How the data were processed

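Per the labels' protocols, RNA was precipitated with an anti-NRPE1 antibody, given a poly(A) tail, treated with DNase and made into libraries by template switching. Per the submitters' processing notes, the tools were UMI-tools, cutadapt, Bowtie2 and, for bisulfite reads, Bismark, with TAIR10. The sources used here give neither versions nor settings. The authors deposited raw counts per 200 bp window for 24 libraries and, per the file headers, methylation levels as a fraction from 0 to 1, averaged by the authors per genotype with no coverage. The authors' class lists carry no model settings. The ago4 library of the gp2 set is titled "grp2", and its column name has gp2.

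Overlapping windows share reads, so counts over several windows can hold a read more than once. Sums were made by class, chromosome, 1 Mb bin and gene body (window midpoint within a gene of the RefSeq table of TAIR10.1, used for names and neighbours). Tests used edgeR 4.0.16 in R 4.3.3 (glmQLFit and glmQLFTest, TMM, filterByExpr with counts of 10 and 15, threshold 0.05). The fits took 19 libraries of the 6 replicated genotypes (ago4, Col-0, nrpe1, spt5l, dms5-1 and drd3-3), so that ago4 drew on a shared spread. Shares were tested by exact permutation. DESeq2 1.42.0 and the scalings, filters and left-out libraries of the closing section were alternatives. The fits were tested on simulated data. Depth limits windows of few counts, and intervals and floors (95%, 3 counts) cover counting error only.

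Same-set Col-0 and nrpe1 libraries deviated together from their group means (r of 0.129 to 0.374 in 5 pairs, all over 0.1), as did ago4 and Col-0 (0.309 in gp2, 0.254 in gp3), so the set was also fitted as a block. Named regions needed at least 2 called windows and both ago4 libraries beyond all 6 Col-0 libraries, and those of smallest p were taken, 8 each way outside chromosome 2 from 4 to 12 Mb and 4 each way inside. Named genes met the same condition, by largest log2 change. Every called list member and AGO4 were added. The other list members with values were picked after their values were seen. The libraries, the interval and the lists were chosen with earlier results of these data known.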

Additional observations from a re-analysis of the deposited data

Results flagged for a closer look

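Examined were 72 groups of library values (class shares, class signals, named windows and genes, and the called pathway genes with AGO4). In 11 of them, all Col-0, a library lay farther from the rest than Dixon's 95% limit allows. For continuous values chance gives about 1 in 20. Where a single library had reads and the others none, the limit was passed by construction, so the count of 11 measures no excess. Col-0 gp3 was the far library in 7 of the 11 groups, most of them such sites. It was high at the pseudogene AT1G25430, with 371 CPM and 248 in the next library, where ago4 had 3.82 and 0. It was high at the named window of chr2:2852401-2852750 too, with 13.9 CPM and 9.002 in the next library, where ago4 had none.

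The other 9 were sites of higher RNA in ago4 at which a single Col-0 library had a few reads and the others had none. Col-0 gp3 had 0.174 CPM in the named windows at chr1:9591751-9592100, chr1:9568801-9569150 and chr2:9457351-9457700, 0.563 CPM at AT1G27560 and 0.845 CPM at AT1G27550. Col-0 gp2 had 0.740 CPM at chr1:10005301-10005950. Col-0 untagged had 0.110 CPM at chr2:7525501-7526000 and 0.483 CPM at AT1G09135. Col-0 gp5 had 0.817 CPM at AT3G03165. Each of these values is 1 to 4 reads.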

How the results depend on the processing

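Counts of called windows and genes moved more with the libraries used than with the test. For windows (3144 lower and 685 higher), the numbers lower and higher were 1825 and 89 against Col-0 gp2 by itself, 1128 and 327 against Col-0 gp3 by itself, 0 and 0 with the 4 libraries of gp2 and gp3 by themselves, 2093 and 498 without chromosome 2 from 4 to 12 Mb, and 1538 and 332 with every second window. The higher windows numbered 197 by DESeq2, 403 with DESeq2 size factors, 410 with library totals, 311 with background scaling, 383 with background scaling and the set as a block, and 4135 without a filter. Leaving out 1 library gave 860 to 4596 lower and 242 to 2134 higher windows.

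For gene bodies (193 lower and 257 higher), 0 and 0 were called with the 4 libraries of gp2 and gp3 by themselves (844 at an unadjusted p under 0.05), 71 and 5 against Col-0 gp2 by itself, 81 and 11 against Col-0 gp3 by itself, 300 and 74 by DESeq2, and 70 lower without the stretch. The higher genes numbered 117 in ago4 and Col-0 libraries only, 129 with background scaling, 95 with library totals and 610 without a filter. The replicate block of the set left 126 higher, and 62 with background scaling as well. Leaving out 1 library gave 75 to 237 lower and 58 to 469 higher genes. By biotype the block left 56 of 185 higher protein-coding genes, and 10 lower and 8 higher long non-coding RNA genes, against 16 and 13 without it. It moved the other totals of windows, gene bodies and bins with background scaling by less than 1.5 times.

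For the 1 Mb bins (0 and 0), the numbers lower and higher were 3 and 0 with TMM, 2 and 0 with TMM and the block, 12 and 5 with TMM in ago4 and Col-0 libraries only, and 13 and 8 there without windows of high nrpe1 counts. In all 19 libraries without those windows they were 11 and 0, then 6 and 0 against Col-0 gp2 and 7 and 1 against Col-0 gp3. Leaving out 1 library gave 0 to 5 lower bins, the highest without Col-0 gp6. Over all 121 bins the median log2 difference was 0.0640 with TMM and −0.89 with background scaling, so signs under TMM are relative to that median. Of the 17 bins followed singly, 3 of chromosome 2 turned positive. From 2 Mb it was 0.0665 with TMM and 0.14 against Col-0 gp2 without windows of high nrpe1 counts. From 3 Mb it was 0.0437 in that last fit. From 12 Mb it was 0.20 with TMM, 0.19 with the block, 0.12 without windows of high nrpe1 counts, 0.12 in ago4 and Col-0 libraries with or without those windows, and 0.0863 and 0.10 against Col-0 gp2 and gp3. TMM centres the bins at a median near 0 by construction.

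For class shares of ago4 against nrpe1, with windows capped, the log2 differences were 2.48 (RdDM), 0.00268 (non-RdDM) and −1.26 (outside Pol V transcription), with adjusted p = 0.0714, 1 and 0.0714 (exact permutation test), so no call held and the non-RdDM difference was gone. Leaving out 1 library gave 2.53 to 2.85, 1.07 to 1.38 and −0.46 to −0.42, at the smallest p those designs allow (0.0667 or 0.167, exact permutation test). Class shares against Col-0 stayed short of the threshold after adjustment in each alternative. Of the 24 named regions, 24 kept their calls against Col-0 gp3 by itself and 23 against Col-0 gp2 or by DESeq2, while 15 and 17 of the 25 called named genes lost theirs against Col-0 gp3 and gp2. Named regions, and named genes other than list members, were chosen with both ago4 libraries beyond every Col-0 library. Calls they kept against a single Col-0 library are therefore no separate check. Depth limits Col-0 gp4, gp5 and gp6 most, where a window of 1 CPM holds few reads. The causes of these moves were not tested.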
